A study of Mus musculus with 8 samples.

Results

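The comparison described here is that of HMGA1a transgenic (TG) with wild-type (WT) spleen cells at 12 months of age. It rests on 4 of the 8 arrays of the study, 2 TG and 2 WT, each array made from the spleen cells of a separate male mouse of the strain labelled C57/BL6. The other 4 arrays hold the same genotypes at 2 months. Per the series' design text, TG mice develop lymphoid tumors, which are well established at 12 months and have not yet formed at 2 months, and the WT mice were littermates. The promoter that drives the transgene and the share of tumor cells in each spleen are not given in the sources used here. Each mouse carries a replicate number, 1 or 2, and the TG and WT mice of the same number form a pair. The arrays were chosen by their titles, and their genes were then sorted by whether TG and WT differed the same way in both pairs or in 1 pair only.

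HMGA1a is a splice form of HMGA1, a small chromatin protein that binds the minor groove of A/T-rich DNA through short motifs called AT hooks. It bends DNA and helps transcription factors to assemble at promoters. It is abundant in embryos and in many tumors and scarce in most adult tissues. The spleen holds B cells in follicles and in the marginal zone around them, T cells, natural killer (NK) cells, and macrophages of the red pulp, which clear old red cells. In RNA from a mixture of spleen cells, fewer cells of a type and less RNA per cell cannot be told apart.

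Affymetrix Mouse 430 2.0 arrays report a linear signal for each probe set, a group of short probes against 1 transcript. Signals below are in these units and differences are in log2(signal + 16), so that 1 is a 2-fold difference and changes of dim genes are understated. After removal of dim probe sets 11189 genes were tested. The median signal was 44.9 to 49.5 on the 8 arrays. Spleen markers were present in every 12-month mouse, with Ms4a1, the B cell protein CD20, at 3970 and 5738 in TG and 4334 and 5937 in WT. Pancreas genes, a sign of neighbouring tissue, summed to 762 and 721 in TG and 596 and 806 in WT over 8 genes at 12 months. Their median difference of TG and WT at 12 months was 0.78 in the replicate 1 pair and -0.04 in the replicate 2 pair. At 2 months it was -3.69 in the replicate 1 pair and 0.11 in the replicate 2 pair. The replicate 1 pairs of both ages thus differed in these genes. The part of this in the fits and in the comparisons at either age was not tested. The ratio of 3' to 5' signal of Gapdh, a measure of RNA integrity, was 0.843 and 1.21 in TG and 1.25 and 1.73 in WT at 12 months. In both pairs the TG mouse had the lower ratio, as it had for actin (1.20 and 1.10 against 1.48 and 1.31), and the part of this in the results was not tested.

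At 12 months no gene passed an adjusted p of 0.05 (0.0% of genes; limma, Benjamini-Hochberg), the smallest being 0.232. When the replicate number was added as a block, 5 genes did (0.0447%), namely Lgals1, which was higher in TG, and Cr2, Fcer2a, Gzma and Ighv14-2, which were lower. An unadjusted p under 0.05 was reached by 865 genes (7.73%), 290 of them higher (2.59%) and 575 lower (5.14%) in TG, and with the block by 2227 genes (19.9%), 812 of them higher (7.26%) and 1415 lower (12.6%). The TG and WT signals did not overlap for 3825 genes (34.2%), 1603 with TG above WT (14.3%) and 2222 with TG below (19.9%). With 2 mice a group a large share of genes stands apart in this way without any effect. A lack of overlap in a gene is therefore a description of its values and not evidence of a difference. At 2 months 44 genes had an unadjusted p under 0.05 (0.393%) and 0 an adjusted one in limma, with the block or without it.

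The pairs shared part of their difference. Across genes the log2 differences of the pairs correlated at r = 0.319 at 12 months, against 0.034 at 2 months, and genes are not independent replicates. The direction was the same in both pairs for 62.5% of genes, and 94.5% were under 2-fold in both. A 2-fold difference in the same direction in both pairs was seen for 18 genes higher in TG (0.161%) and 22 lower (0.197%), against 4 higher (0.0357%) and 2 lower (0.0179%) at 2 months. A 2-fold difference was confined to the replicate 1 pair for 101 genes higher (0.903%) and 178 lower (1.59%), and to the replicate 2 pair for 115 higher (1.03%) and 37 lower (0.331%). Between these classes lay genes that were 2-fold different in 1 pair and differed the same way by at least 0.5 in the other. Of these, 21 were higher (0.188%) and 67 lower (0.599%) with the larger difference in pair 1, and 15 were higher (0.134%) and 33 lower (0.295%) with the larger difference in pair 2. Another 3 genes were 2-fold different in opposite directions (0.0268%), 1 of them higher in pair 1 (0.00894%) and 2 higher in pair 2 (0.0179%).

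**Figure D1:**
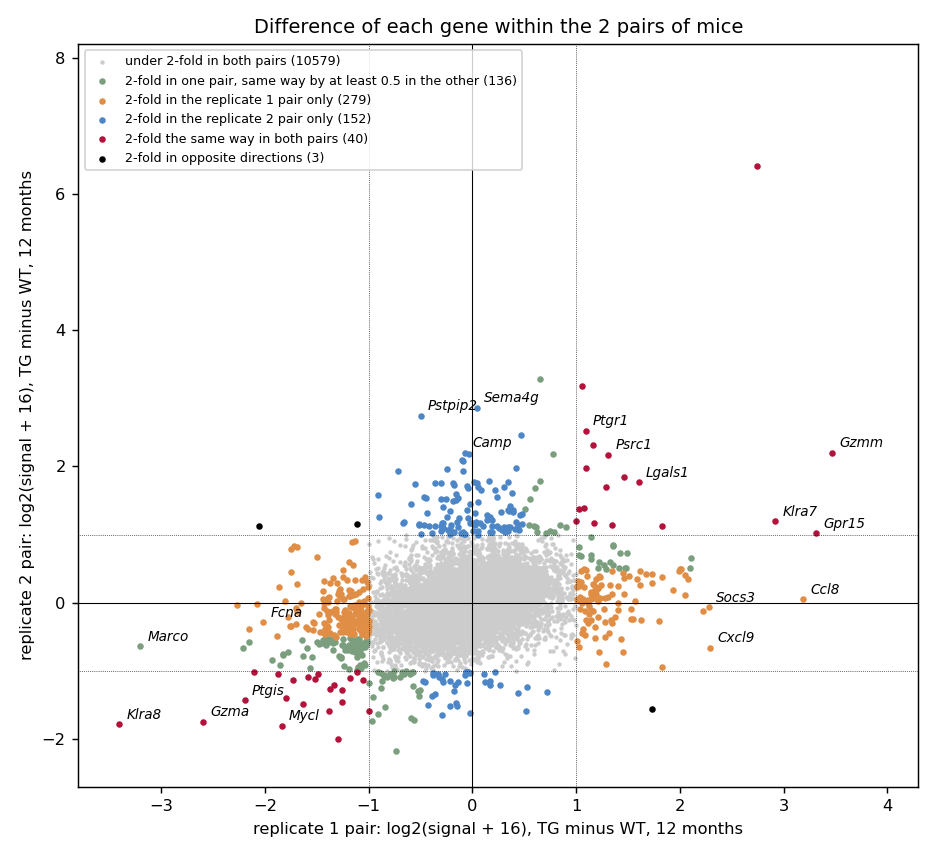
Log2 difference of TG and WT at 12 months for each of the 11189 genes, in the replicate 1 pair (x axis) and the replicate 2 pair (y axis), with dotted lines at 2-fold and genes coloured by class. The 40 genes 2-fold different the same way in both pairs lie in the upper right and lower left corners, the 279 orange genes beyond 2-fold in pair 1 and under 0.5 that way in pair 2, and the 152 blue genes the reverse, with 136 green genes between these classes.

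The genes that follow were picked by their differences in these same mice. A lack of overlap between the genotypes largely follows from that choice and adds no support to it. Among the genes higher in both pairs, 2 code for surface or granule proteins of cytotoxic lymphocytes. Gzmm, granzyme M, a protease of the granules of NK and cytotoxic T cells, had signals of 1089 and 430 in TG (replicates 1 and 2) and 83.9 and 81.1 in WT. The TG mice stood far above WT, by 2.83 ± 0.37 (log2, SE, n = 2 a group, adjusted p = 0.232 in limma, 0.0528 with the block). Klra7, an inhibitory Ly49 receptor of NK cells, was 637 and 120 in TG and 70.1 and 43.4 in WT. Its differences were 2.92 and 1.19 in the pairs, and its probe set can bind related Ly49 genes. Gpr15, a receptor that guides T cells to the large intestine, was 393 and 73.7 in TG and 25.2 and 28.1 in WT. For all 3 genes both TG mice were above both WT mice, with TG replicate 1 the highest.

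Lgals1 codes for galectin-1, a sugar-binding protein that restrains T cells and is secreted by many tumors. Its signals were 3771 and 2780 in TG and 1231 and 806 in WT, a difference of 1.68 ± 0.30 that was alike in the pairs (1.60 and 1.77). The adjusted p was 0.477 without the block and 0.00286 with it. A further probe set of Lgals1 gave 1.85 and 1.79 in the pairs. Psrc1, a microtubule-binding protein of the mitotic spindle, was 219 and 364 in TG and 78.7 and 68.3 in WT, without overlap, and its second probe set gave 0.87 and 1.61.

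Genes of macrophages were found on this side as well. Vsig4, a complement receptor of resident macrophages, had signals of 243 and 183 in TG and 78.2 and 39.4 in WT. Msr1, the class A scavenger receptor, had 125 and 72.0 in TG and 48.0 and 29.0 in WT, and fell just short of 2-fold in its smaller pair (0.97). Neither gene overlapped between the genotypes. Both differ in direction from most of the macrophage markers described further on.

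The remaining named genes higher in both pairs were enzymes and proteins of varied function. Ptgr1, which inactivates prostaglandins and leukotriene B4, was 287 and 823 in TG and 126 and 130 in WT. Plscr1, a phospholipid scramblase induced by interferon, was 269 and 306 in TG and 124 and 108 in WT, with a second probe set at 0.77 and 1.35 in the pairs. Penk, the precursor of the enkephalin peptides, was 204 and 241 in TG and 93.8 and 95.8 in WT. In these 3 genes the WT mice lay close together and both TG mice above them.

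Dimmer genes of the class included Coq4, needed for the synthesis of coenzyme Q, at 108 and 63.4 in TG and 18.9 and 20.4 in WT. Chst7, a sulfotransferase of chondroitin sulfate, was 80.1 and 96.4 against 26.5 and 33.8. Lor, loricrin of the skin barrier, was 174 and 138 against 62.2 and 31.2. Itgb2l, an integrin subunit of myeloid cells, was 58.4 and 93.5 against 13.3 and 33.7. In each of these the genotypes did not overlap. Mroh2a, with 42.7 and 153 in TG and 11.8 and 48.4 in WT, was higher within each pair although the TG mouse of replicate 1 lay below the WT mouse of replicate 2. The other 4 genes of the class carry clone or predicted names, and the difference of one of them was the largest of the class, with 260 and 1846 in TG and 25.2 and 5.94 in WT.

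Genes lower in both pairs included surface proteins of mature B cells. Cr2, the complement receptor CD21 of B cells and follicular dendritic cells, had signals of 425 and 564 in TG and 1352 and 1608 in WT. The difference was -1.56 ± 0.20 (limma, adjusted p = 0.232, and 0.0255 with the block). Fcer2a, the IgE receptor CD23 of follicular B cells, was 298 and 467 in TG and 805 and 1429 in WT (adjusted p = 0.561, and 0.0255 with the block), and a second probe set gave -1.22 and -1.36 in the pairs. Ighv14-2, a variable segment of the antibody heavy chain, was 1395 and 1586 in TG and 3628 and 3827 in WT (adjusted p = 0.260, and 0.0255 with the block). The 3 genes thus had both TG mice well below both WT mice, and a segment's probe set can bind related segments.

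Cytotoxic lymphocyte genes were found here too, in contrast to Gzmm and Klra7. Gzma, granzyme A, was 42.5 and 89.6 in TG and 338 and 337 in WT, a difference of -2.17 ± 0.27 (limma, adjusted p = 0.232, and 0.0381 with the block). Klra8, the activating Ly49H receptor of NK cells, was 1.74 and 29.2 in TG and 172 and 139 in WT, and its probe set, too, can bind related genes. Ccr9, which guides lymphocytes to the thymus and small intestine, was 31.0 and 34.4 in TG and 148 and 117 in WT, while a second probe set reached only -0.79 and -0.47 in the pairs. Granzymes M and A therefore differed in opposite directions in the same 4 mice.

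Among genes of other spleen cells, Cd209b, the lectin SIGN-R1 by which marginal zone macrophages take up polysaccharides, was 25.4 and 38.6 in TG and 103 and 102 in WT. Its second probe set gave -2.64 and -1.03 in the pairs. Ptgis, prostacyclin synthase of vessels and stroma, was 22.5 and 56.2 in TG and 160 and 179 in WT. Igfbp5, a secreted binding protein of insulin-like growth factors, was 81.4 and 121 in TG and 404 and 261 in WT, but another probe set of the gene was higher in TG (0.61 and 0.27). For Cd209b and Ptgis both TG mice were below both WT mice, with TG replicate 1 the lowest.

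Mycl, the L-Myc member of the MYC family, was 28.2 and 14.9 in TG and 142 and 91.6 in WT. Haao, an enzyme of tryptophan breakdown, was 121 and 250 in TG and 332 and 596 in WT. Mical2, an enzyme that oxidises actin, was 37.2 and 27.6 in TG and 111 and 89.9 in WT. TG was below WT without overlap in each of these, and likewise for Rusc2 (15.8 and 17.2 against 61.9 and 116), Pou5f2 (94.6 and 40.4 against 248 and 139), Btnl9 (24.9 and 33.6 against 76.9 and 90.6) and Gtpbp6 (38.1 and 101 against 146 and 233).

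St6galnac3, an enzyme that adds sialic acid to sugar chains, was 37.8 and 97.9 in TG and 162 and 233 in WT. St6galnac2, of the same family, was 20.3 and 24.2 against 56.6 and 105, and St8sia1, which makes the ganglioside GD3, was 42.6 and 23.8 against 106 and 71.5. St6galnac2 and St8sia1 were picked out after their values were seen, as were the other members Ptpro, a receptor phosphatase (38.6 and 53.7 against 137 and 127), Pgap1, which trims GPI anchors (210 and 183 against 472 and 386), and the T cell receptor segment Trgv1 (7.67 and 33.2 against 70.9 and 85.3). None of these 6 genes overlapped between the genotypes, which their choice by the same values nearly ensures.

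Near the 2-fold limit, the smaller pair difference was 1.00 for Penk and 1.02 for Gpr15 inside it, and 0.97 for Msr1 and 0.93 for Phgdh outside it. On the lower side it was -1.0 for St6galnac2 and -1.02 for Pgap1 inside, and -0.99 for Mapk11 and -0.98 for B3gnt8 outside. In 8 of the 18 higher and 12 of the 22 lower genes the dimmer genotype had a mean signal under 50, close to the limit of 45.3 at which probe sets were dropped.

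**Figure D2:**
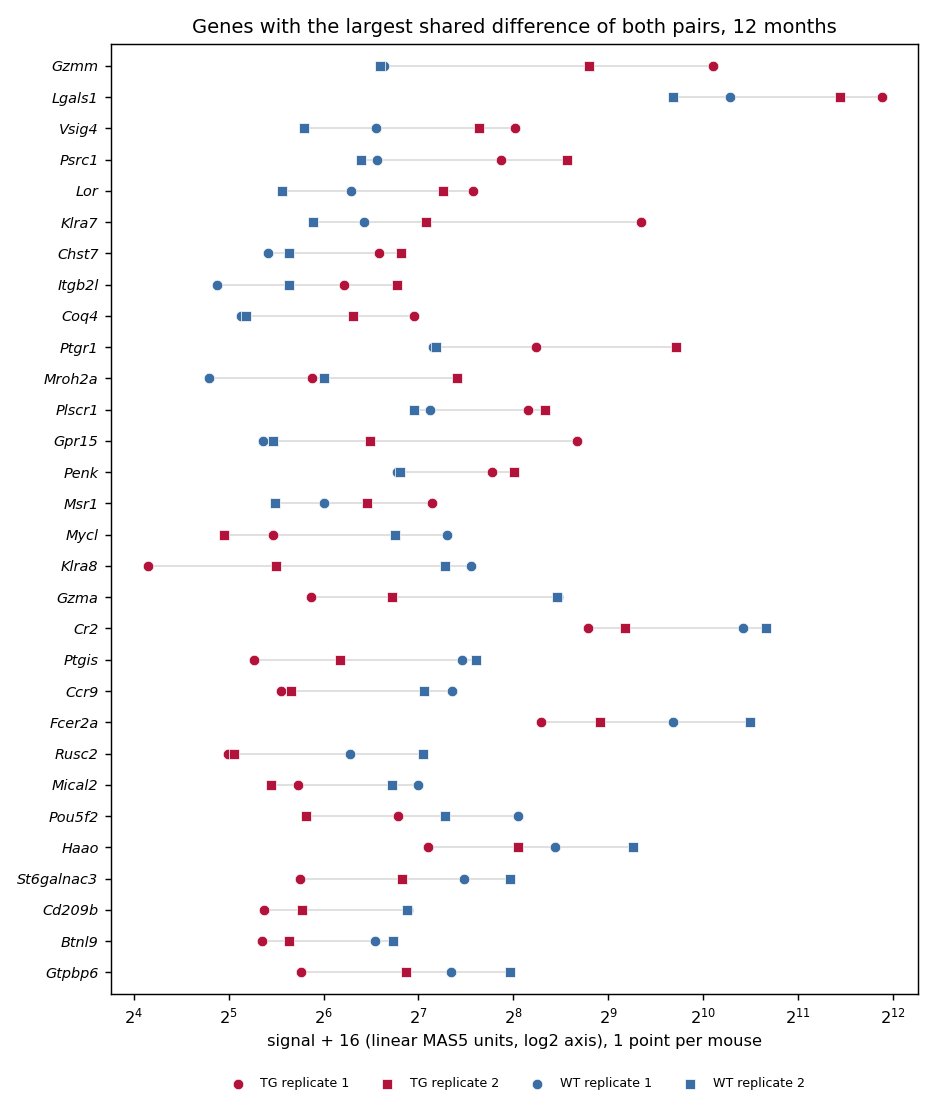
Signal + 16 on a log2 axis in each 12-month mouse for the 15 named genes with the largest smaller-of-both pair difference in either direction; circles are replicate 1, squares replicate 2, red TG and blue WT. Red points lie to the right of blue in the upper 15 genes, except in Mroh2a where they interleave, and to the left in the lower 15.

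The 2-month mice, which share no array with the 12-month comparison, gave a separate reading of these genes. Of the 18 genes higher in both pairs at 12 months, 14 were higher in TG on average at 2 months and 12 in both pairs, against 52.5% and 27.2% of all genes. Their median difference was 0.29 at 2 months and 1.67 at 12 months. Because the genes were picked by their size at 12 months, the median there is large by choice. The sizes at the 2 ages therefore do not measure a change with age, here or for the lower genes. Of the 22 lower genes, 19 were lower on average at 2 months and 15 in both pairs, against 47.5% and 24.2% of all genes, with a median of -0.27 at 2 months and -1.39 at 12 months. A 2-fold difference in both pairs was present at 2 months for 2 of the 18 and 0 of the 22 genes. Gzmm was at 260 and 312 in TG and 45.7 and 46.0 in WT at 2 months, and so was high in all 4 TG mice of both ages.

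The difference between the effects of the transgene at 12 and at 2 months had no gene past an adjusted p of 0.05 in limma (0.0%), and 213 genes had an unadjusted p under 0.05 (1.90%), or 911 with the block (8.14%). The smallest p-values on the higher side belonged to Psrc1, Plscr1 and Ube2d3. Psrc1 was at 78.9 and 46.2 in TG and 81.1 and 64.5 in WT at 2 months, and its effect at 12 months was larger by 1.94 ± 0.43 (adjusted p = 1.00, and 0.598 with the block). Ube2d3, a ubiquitin-conjugating enzyme, was 4630 and 5152 in TG and 2754 and 3071 in WT at 12 months, against 3329 and 3531 in TG and 3469 and 3839 in WT at 2 months. Its 6 other probe sets did not all follow at 12 months, with pair differences from 0.89 and 1.08 to -0.08 and -0.32.

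On the lower side they belonged to Tmem181a, Cr2 and Gzma. Gzma was at 720 and 616 in TG and 936 and 1002 in WT at 2 months, so its level was lower in both genotypes at 12 months and further apart between them. Cr2 was at 1210 and 1156 in TG and 1526 and 1346 in WT at 2 months, closer together than at 12 months. Tmem181a, a transmembrane protein, was 95.0 and 143 in TG and 248 and 180 in WT at 12 months, and 277 and 369 in TG against 146 and 81.5 in WT at 2 months, so that the direction was turned.

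Because HMGA1 binds A/T-rich DNA, the 250 bases before the first listed start of each gene were searched for A/T runs, taken as AAATTT or AATATT (each its own reverse complement). Promoters from RefSeq (GRCm38.p6) were matched for 9056 of the 11189 genes. A run was found in 4 of the 15 matched promoters of genes higher in both pairs (26.7%), in 1 of 18 of those lower (5.56%) and in 603 of all 9056 (6.66%). The median A/T content of the 250 bases was 53.2% in the higher, 44% in the lower and 40% in all genes. Of the lists described further on, macrophage markers, mostly lower in TG, had 50.8% and a run in 2 of 15 promoters (13.3%). Endothelial markers had 43.2% and a run in 1 of 8 (12.5%), and mitosis genes 40.6% and a run in 1 of 28 (3.57%). Replication genes had 42% and a run in 2 of 27 (7.41%), and ribosome production genes 39.2% and a run in 1 of 20 (5%). The 5 promoters with a run among the genes 2-fold different in both pairs are shown for the letters around it. Each stretch is 80 bases, 5' to 3' on the strand of the gene with 1 run in capitals. A match is a description of the letters and does not show binding.
Gpr15, higher, chr16:58719034-58719113, minus strand: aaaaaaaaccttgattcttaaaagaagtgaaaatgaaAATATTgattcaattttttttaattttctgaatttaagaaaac
Klra7, higher, chr6:130231856-130231935, minus strand: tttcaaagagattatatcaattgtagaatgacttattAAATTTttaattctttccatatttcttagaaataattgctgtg
Mroh2a, higher, chr1:88226863-88226942, plus strand: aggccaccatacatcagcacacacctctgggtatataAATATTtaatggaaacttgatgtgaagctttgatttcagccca
Ptgr1, higher, chr4:58987189-58987268, minus strand: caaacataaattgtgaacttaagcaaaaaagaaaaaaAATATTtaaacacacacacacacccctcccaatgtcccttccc
Klra8, lower, chr6:130129984-130130063, minus strand: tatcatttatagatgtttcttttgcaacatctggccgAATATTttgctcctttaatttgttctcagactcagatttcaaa

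The A/T runs thus stood before genes of both directions, the Ly49 receptors Klra7 and Klra8 being an example of each.

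Genes of cell division were mostly higher in TG in both pairs. Their lists, like all lists here, were chosen with earlier results of these data known, so their counts are descriptions. The mitosis list also holds Psrc1, described above. Of 33 measured genes of mitosis and the spindle, 32 were higher in both pairs, against 26.9% of all genes, and 27 had both TG mice above both WT mice, against 14.3%. Their median difference was 0.53, with 0.59 in pair 1 and 0.50 in pair 2, beside a median of -0.03 over all genes. None of the 33 passed an adjusted p of 0.05 in limma, with the block or without it, and 6 had an unadjusted p under 0.05, all 6 on the higher side, where 2.59% of all genes reached it. The gene of the list that was not higher was Kif4, a chromosome motor named here after its value was seen, at 196 and 133 in TG and 234 and 126 in WT.

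Racgap1, a regulator of cytokinesis, was 563 and 399 in TG and 210 and 213 in WT. Kif20a, a motor of the dividing cell's midzone, was 172 and 147 in TG and 92.9 and 63.0 in WT. The cyclins Ccna2 and Ccnb2, which activate the mitotic kinases, were 920 and 1006 against 579 and 628, and 673 and 547 against 489 and 401. All 4 genes had TG above WT without overlap. At 2 months the list's median was 0.25, with 0.00 in pair 1 and 0.45 in pair 2, so that in the younger mice it rested on pair 2.

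Promoters of mitotic genes often carry the letters CCAAT, the site of the factor NF-Y, within the bases before the start. On either strand CCAAT was found in the 250 bases before the start of 21 of 28 matched mitosis genes (75%) and 17 of 27 replication genes (63.0%), against 3281 of all 9056 (36.2%). These shares are a property of the listed genes that passed the signal filter, and were not computed from differences of TG and WT. Among the genes picked by the arrays, CCAAT was found in 7 of 15 higher in both pairs (46.7%) and in 5 of 18 lower (27.8%). A site of the E2F family, taken as TTTGGCGC or TTTCCCGC on either strand, was found in 6 of 27 replication genes (22.2%), 0 of 28 mitosis genes and 2.65% of all. The last 120 bases before the start are shown for 3 genes described above and for Cdk1, chosen because they hold the letters there, the kinase that cyclins A2 and B2 activate, 5' to 3' on the strand of the gene with CCAAT or its complement ATTGG in capitals (RefSeq, GRCm38.p6).
Psrc1, chr3:108383684-108383803, plus strand: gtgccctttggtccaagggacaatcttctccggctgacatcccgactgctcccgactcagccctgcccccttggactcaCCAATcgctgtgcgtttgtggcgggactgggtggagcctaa
Racgap1, chr15:99651657-99651776, minus strand: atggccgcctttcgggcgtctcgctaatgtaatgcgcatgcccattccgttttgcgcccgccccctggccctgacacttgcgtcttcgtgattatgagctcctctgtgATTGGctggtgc
Ccnb2, chr9:70421555-70421674, minus strand: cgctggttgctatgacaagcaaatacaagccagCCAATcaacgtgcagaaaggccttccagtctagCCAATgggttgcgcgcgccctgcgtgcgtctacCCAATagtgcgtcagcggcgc
Cdk1, chr10:69352913-69353032, minus strand: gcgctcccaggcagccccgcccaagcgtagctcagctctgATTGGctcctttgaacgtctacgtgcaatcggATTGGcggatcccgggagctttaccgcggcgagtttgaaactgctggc

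Ccnb2 holds 3 such sites, Cdk1 holds 2, and Psrc1 and Racgap1 hold 1 each. The signals of Cdk1 were 675 and 665 in TG and 414 and 459 in WT.

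DNA replication genes showed the same direction to a smaller extent. Of 34 measured, 28 were higher in both pairs, against 26.9% of all genes. In 21 TG was above WT without overlap, against 14.3% of all genes, and in none below. The median was 0.38 (0.48 in pair 1 and 0.25 in pair 2). Rfc5 and Rfc4, subunits of the clamp loader, were 410 and 440 against 245 and 235, and 290 and 166 against 146 and 102. Pole, the catalytic subunit of polymerase epsilon, was 270 and 137 against 96.6 and 123. TG was above WT in each, and in Rfc4 and Pole the TG mouse of replicate 1 was the highest.

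Genes that supply growing cells were shifted likewise. Over all genes 26.9% were higher in both pairs and 14.3% had TG above WT without overlap. Of 24 genes of ribosome production, 19 were higher in both pairs and 17 had TG above WT without overlap, with a median of 0.33 (0.38 and 0.29 in the pairs). Polr1b, a subunit of RNA polymerase I, was 249 and 236 in TG and 133 and 111 in WT, and Nop58, a protein of small nucleolar particles, was 389 and 465 against 128 and 273. Of 19 proteasome genes 17 were higher in both pairs (median 0.33), and of 18 genes of nucleotide synthesis 13 were (median 0.30). Of 13 genes of serine and one-carbon metabolism 10 were higher in both pairs. Among them Phgdh, the first enzyme of serine synthesis, was 1122 and 1428 in TG and 565 and 744 in WT, with 0.97 and 0.93 in the pairs. The mitochondrial ribosome had 14 of 21 genes higher in both pairs (median 0.20).

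Genes that hold lymphocytes at rest or regulate their exit from lymphoid organs were lower in both pairs for 12 of 16, against 35.5% of all genes, with a median of -0.28. Klf4, a factor of resting lymphocytes, was 149 and 178 in TG and 433 and 267 in WT, but its second probe set gave 0.06 and -0.34 in the pairs. The glucocorticoid-induced Tsc22d3 overlapped (1304 and 771 against 2727 and 1069), and 1 of its other probe sets gave 0.26 and -0.05. Ccr7, the receptor for lymph node homing, was 412 and 386 against 540 and 630. Insr, the insulin receptor and a gene reported elsewhere as a target of HMGA1, was 116 and 144 in TG and 229 and 217 in WT. Of the 7 measured genes reported as such targets, Insr was the one lower in TG.

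Red pulp and marginal zone macrophage markers were lower in TG. Of 20 measured, 16 were lower in both pairs and 15 had both TG mice below both WT mice, against 35.5% and 19.9% of all genes, and the other 5 overlapped. An unadjusted p under 0.05 was reached by 11 on the lower side, where 5.14% of all genes reached it, and none passed an adjusted one, with the block or without it. The median was -0.63, with -1.0 in pair 1 and -0.31 in pair 2, and 0.03 at 2 months. The summed signal of the 20 genes was 16611 and 27330 in TG and 32931 and 32514 in WT, so that the TG mouse of replicate 1 lay far lower than that of replicate 2. The part of cell composition in this and the other differences was not tested.

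Marco, a scavenger receptor of marginal zone macrophages, was 65.8 and 549 in TG and 738 and 862 in WT, and its second probe set gave -3.09 and -0.25 in the pairs. Mrc1, the mannose receptor, was 548 and 1012 in TG and 1610 and 1247 in WT. Csf1r, the receptor for the growth factor M-CSF, was 4266 and 5410 against 6659 and 7272. Each of these had TG below WT without overlap. The members not lower on average were Cd163, a hemoglobin scavenger receptor with 236 and 549 in TG and 384 and 235 in WT, and Nr1h3, a sterol-sensing receptor with 221 and 225 against 193 and 255, both named after their values were seen.

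Endothelial markers moved beside the macrophage markers. All 13 measured were lower in TG on average, 10 in both pairs and 8 without overlap, against 54.8%, 35.5% and 19.9% of all genes. Their median was -0.45 (-0.65 and -0.23 in the pairs, and -0.04 at 2 months). Stab2, the scavenger receptor of splenic sinus endothelium, was 460 and 730 in TG and 1133 and 1274 in WT. Clec4g, a lectin of sinus endothelium, was 219 and 340 against 468 and 521. For Flt1, a VEGF receptor (72.1 and 108 against 119 and 166), a further probe set was higher in TG (0.67 and 0.41). Of 23 stroma and matrix genes 10 were higher and 13 lower (median -0.03), and Pdgfra, a receptor of fibroblasts, was 180 and 150 against 413 and 258, while its other probe set was higher in TG (0.15 and 0.34 in the pairs).

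Over all genes 35.5% were lower in both pairs, the share to set beside the counts that follow. Dendritic cell markers were lower in both pairs for 11 of 17 (median -0.49), including Siglech of plasmacytoid dendritic cells (50.9 and 106 against 148 and 124). MHC class II genes were lower in both pairs for 9 of 13 (median -0.25, and -0.010 without WT replicate 2). H2-Ob, which tunes peptide loading in B cells, was 953 and 972 in TG and 1769 and 1994 in WT. Immediate early genes, which respond within minutes to stimulation or handling, were lower in both pairs for 10 of 17 (median -0.37, and -0.10 without TG replicate 2). Chemokines and their receptors were lower in both pairs for 11 of 22, all 11 without overlap, against 35.5% and 19.9% of all genes.

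**Figure D3:**
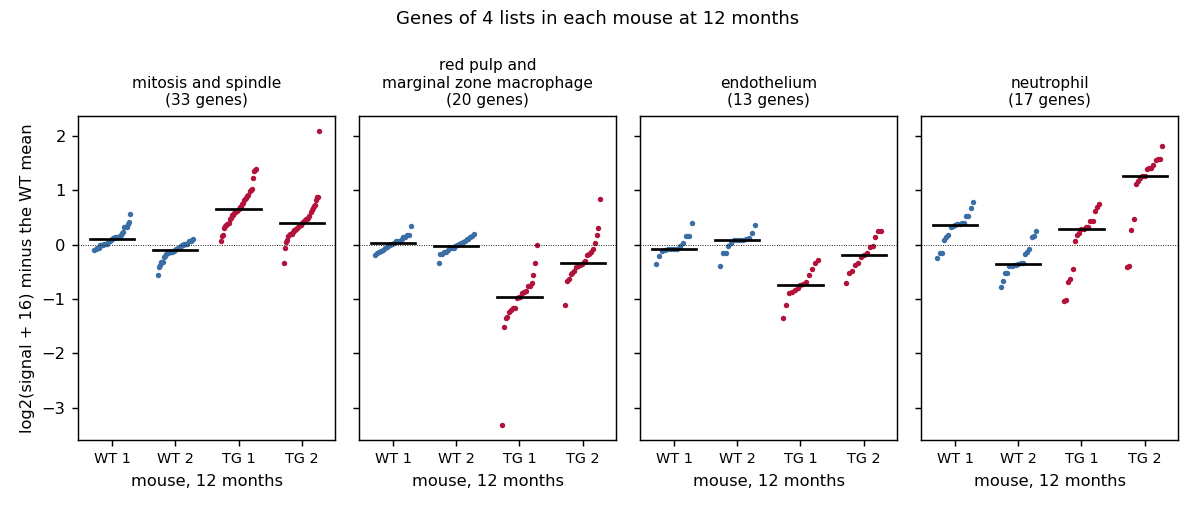
Log2(signal + 16) of each gene minus its mean over the 2 WT mice, in each 12-month mouse, for 4 lists; points are genes and bars are medians. The median of the mitosis genes is above that of either WT mouse in both TG mice, macrophage and endothelial markers are lower in TG replicate 1 than in TG replicate 2, and neutrophil genes are highest in TG replicate 2 and lower in WT replicate 2 than in WT replicate 1.

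B cell markers did not all move the same way. Of 20 measured mature B cell genes 16 were lower on average and 12 in both pairs, against 54.8% and 35.5% of all genes. In both pairs 1 was higher, against 26.9% of all genes. TG was below WT without overlap in 9, against 19.9% of all genes. The median was -0.34, with -0.58 and -0.22 in the pairs, and -0.023 without TG replicate 1. Siglecg, an inhibitory receptor of B cells, was 400 and 885 in TG and 1041 and 1438 in WT, and Ralgps2, a guanine exchange factor, was 480 and 778 against 891 and 1102, but 2 further probe sets of Ralgps2 were higher in TG in pair 2 (0.60 and 0.50). Ms4a1 was only slightly below WT within each pair, and the genotypes overlapped (3970 and 5738 against 4334 and 5937). Within the marginal zone and B1 list, Cd1d1, which presents lipids, was 337 and 387 against 571 and 708. Mzb1, a chaperone of antibody-secreting cells, was 4082 and 8410 in TG and 3009 and 3789 in WT, above WT in both pairs. That list had 8 genes higher and 7 lower on average, and the plasma cell list 6 higher and 8 lower. Over all genes 45.2% were higher and 54.8% lower, so both lists were near that share. The pairs pointed in opposite directions in the marginal zone and B1 list (-0.39 and 0.18) and in the plasma cell list (0.26 and -0.16).

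T cell and cytotoxic genes separated the TG mice. Of 19 measured T cell markers 16 were higher in TG on average, against 45.2% of all genes, with a median of 0.89 in pair 1 and -0.13 in pair 2. Without the TG mouse of replicate 1 the median over both WT mice was -0.03, and without that of replicate 2 it was 0.87. Cd3g, a subunit of the T cell receptor complex, was 1578 and 537 in TG and 564 and 413 in WT, which overlapped. Cd2 and Cd5, surface proteins of T cells, were 888 and 919 against 512 and 589, and 412 and 470 against 198 and 345, both with TG above WT.

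The 19 genes of CD8 T, NK and cytotoxic cells had a median of 1.14 in pair 1 and 0.09 in pair 2, and their summed signal was 15621 and 8197 in TG and 4902 and 6336 in WT. Without TG replicate 1 the list's median was 0.13, and without TG replicate 2 it was 1.05. Ccl5, a chemokine of effector T and NK cells, was 5303 and 3455 in TG and 1215 and 2176 in WT, above WT in both pairs (2.11 and 0.66). Cxcr3, a receptor of activated T cells, was 1379 and 539 against 441 and 450. Both therefore stood above WT in each TG mouse, with replicate 1 the higher.

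The 6 named genes higher in pair 1 only were Cd8a, Gzmk, Tnfsf8, Ccl8, Cxcl9 and Socs3. Cd8a, the CD8 chain of cytotoxic T cells, was 1261 in TG replicate 1, 440 in TG replicate 2 and 257 and 482 in WT. Gzmk, granzyme K, was 417 and 99.3 in TG and 88.4 and 90.1 in WT, and Tnfsf8, the CD30 ligand of activated T cells, was 209 and 78.2 against 37.2 and 58.3. The high value belonged to TG replicate 1 in each.

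Ccl8, a chemokine for monocytes, was 1055 and 152 in TG and 102 and 147 in WT, with a pair 1 difference of 3.18 and a pair 2 difference of 0.05. Cxcl9, the interferon-gamma induced ligand of Cxcr3, was 1452 and 307 against 284 and 494. Socs3, an inhibitor of cytokine signalling, was 1394 and 247 against 275 and 260. TG replicate 1 alone was high in all 3. The interferon response list as a whole had a median of 0.04 over 19 genes, with 0.21 and -0.08 in the pairs.

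The 6 named genes lower in pair 1 only were Fcna, Myh11, Adgrg1, Sp6, Pcolce2 and Krtap12-1. Fcna, ficolin A of macrophages, was 632 and 2368 in TG and 2607 and 2895 in WT. Myh11, the myosin of smooth muscle, was 62.7 and 156 against 274 and 225, and Adgrg1, an adhesion receptor of cytotoxic cells and other tissues, was 10.6 and 137 against 103 and 183, with a second probe set at -0.80 and 0.24. The other 3 lay at 9.37 to 30.2 in TG replicate 1 and at 68.6 to 152 in the other mice. Each had TG replicate 1 as the lowest of the 4 mice.

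Neutrophil genes were confined to pair 2. Of 17 measured, 13 were 2-fold different in pair 2 only, all 13 higher in TG, against 1.03% of all genes. The median was -0.10 in pair 1 and 1.66 in pair 2. The summed signal was 10319 and 23255 in TG and 11430 and 6750 in WT, so that TG replicate 2 was the highest mouse and WT replicate 2 the lowest. Without TG replicate 2 the list's median was 0.28, and without TG replicate 1 it was 1.26. Camp, the antimicrobial peptide cathelicidin, was 534 and 1530 in TG and 562 and 320 in WT. Ngp, a neutrophil granule protein, was 1928 and 4247 against 2052 and 990, and Lcn2, the iron-sequestering lipocalin 2, was 399 and 900 against 429 and 197.

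Elane, neutrophil elastase, was 254 and 411 in TG and 261 and 78.0 in WT. At 2 months Ngp was 1212 and 4868 in TG and 1108 and 2625 in WT, so the replicate 2 mice of both genotypes were the higher there. Csf3r, the G-CSF receptor, named after its values were seen, was lower in both pairs (114 and 180 against 204 and 297).

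Another 2 genes of pair 2 had the largest differences of that class. Pstpip2, an adaptor of the myeloid cytoskeleton, was 107 and 1066 in TG and 157 and 145 in WT, and Sema4g, a semaphorin, was 47.2 and 447 against 45.2 and 47.6. TG replicate 2 alone was high in both. The genes lower in pair 2 only, among them Btnl2, a butyrophilin that inhibits T cells (63.3 and 21.0 against 81.1 and 100.5), and Bbs2, a protein of cilia (51.4 and 14.1 against 58.5 and 70.0), were dim. The other 4, Ccdc77, Cep126, Spats2 and Slc35e4, had signals of 11.7 to 34.8 in TG replicate 2.

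**Figure D4:**
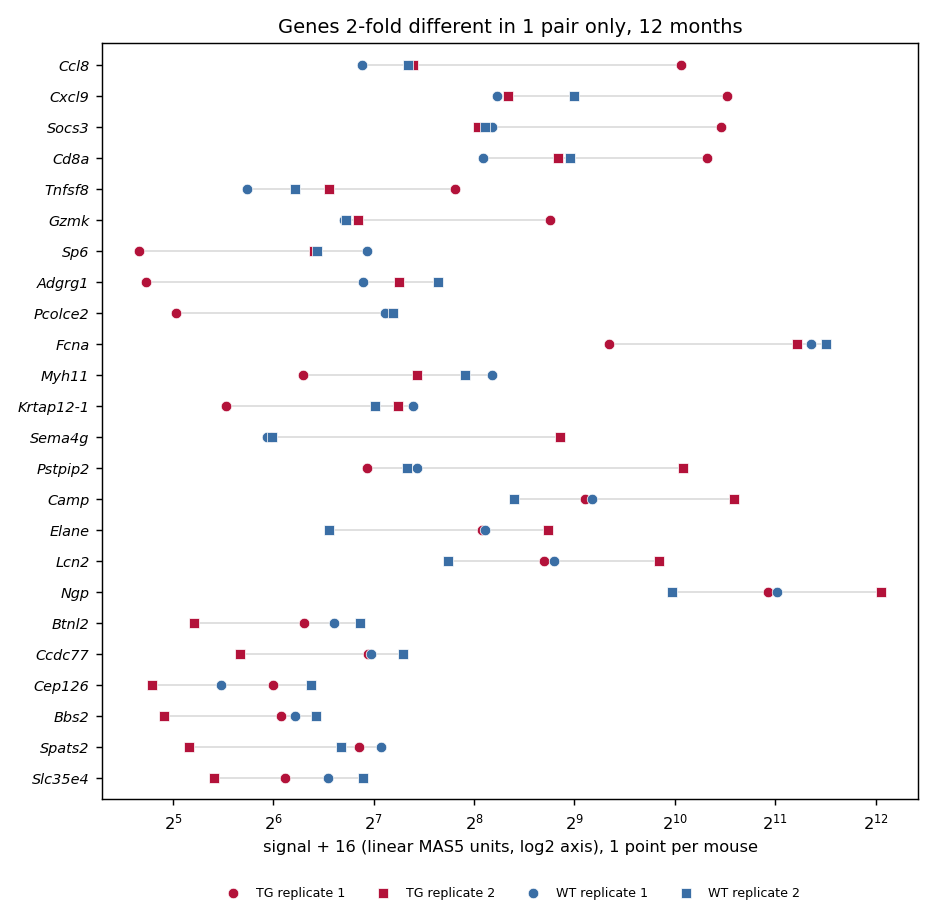
Signal + 16 on a log2 axis in each 12-month mouse for the 6 genes a direction that were 2-fold different in 1 pair only; circles are replicate 1, squares replicate 2, red TG and blue WT. In the first 12 genes the red circle stands apart from the other points, and in the last 12 the red square lies at the end of the range.

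In the 3 genes with opposite differences no signal exceeded 134. Slc25a14, a mitochondrial carrier, was 77.6 and 10.1 in TG and 12.3 and 60.5 in WT. Gsta4, a glutathione transferase, was 7.85 and 80.3 against 83.3 and 27.9, and Car3, a carbonic anhydrase, was 28.6 and 134 against 80.6 and 50.8. In none of the 3 were the genotypes apart.

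Single genes of other lists differed without their list. Cd14, the endotoxin co-receptor of monocytes, was 182 and 382 in TG and 738 and 695 in WT. The monocyte list had a median of 0.10 over 12 genes, but -0.067 and -0.074 within the pairs. Its median of 0.10 changed sign without TG replicate 1 or either WT mouse. Brwd1, a bromodomain protein, was 170 and 175 against 344 and 483, and 3 further probe sets of it were lower in both pairs. Ccng1, a p53 target, was 1484 and 1166 against 935 and 593. The p53 and apoptosis list had 10 of 17 genes higher in both pairs, against 26.9% of all genes (median 0.21). Sesn1, of the same list, was lower (714 and 1121 against 1721 and 1317).

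C6, a complement factor, was 178 and 222 in TG and 401 and 327 in WT, opposite to Vsig4 on the complement list, whose median was -0.03. Galectins, S100 proteins and annexins had a median of -0.03 over 22 genes, so that Lgals1 was not accompanied by its list. Lgals3bp, a binding partner of galectins, was 1244 and 1228 against 794 and 877, and Lgals4, a galectin of the gut, was 64.7 and 47.2 against 98.9 and 101. Medians of erythroid genes (0.04), chromatin and HMG proteins (0.09), cholesterol synthesis (-0.08) and blood progenitors (-0.06) were near that of all genes, but the pairs pointed in opposite directions in each of these lists (-0.25 and 0.35, 0.20 and -0.03, 0.05 and -0.19, and -0.27 and 0.05 in the same order).

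The other lists lay between these. Glycolysis had a median of 0.24, cell cycle entry 0.18 and chaperones of the endoplasmic reticulum 0.11, of which the latter 2 were 0.013 and -0.20 without TG replicate 1. Germinal centre B cell genes had 0.83 in pair 1 and -0.28 in pair 2, and regulatory and exhausted T cell genes 0.66 and -0.26. Platelet genes had -0.59 in pair 1 and 0.08 in pair 2. In these last 3 lists the pairs pointed in opposite directions, as they did for T cell and neutrophil genes.

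**Figure D5:**
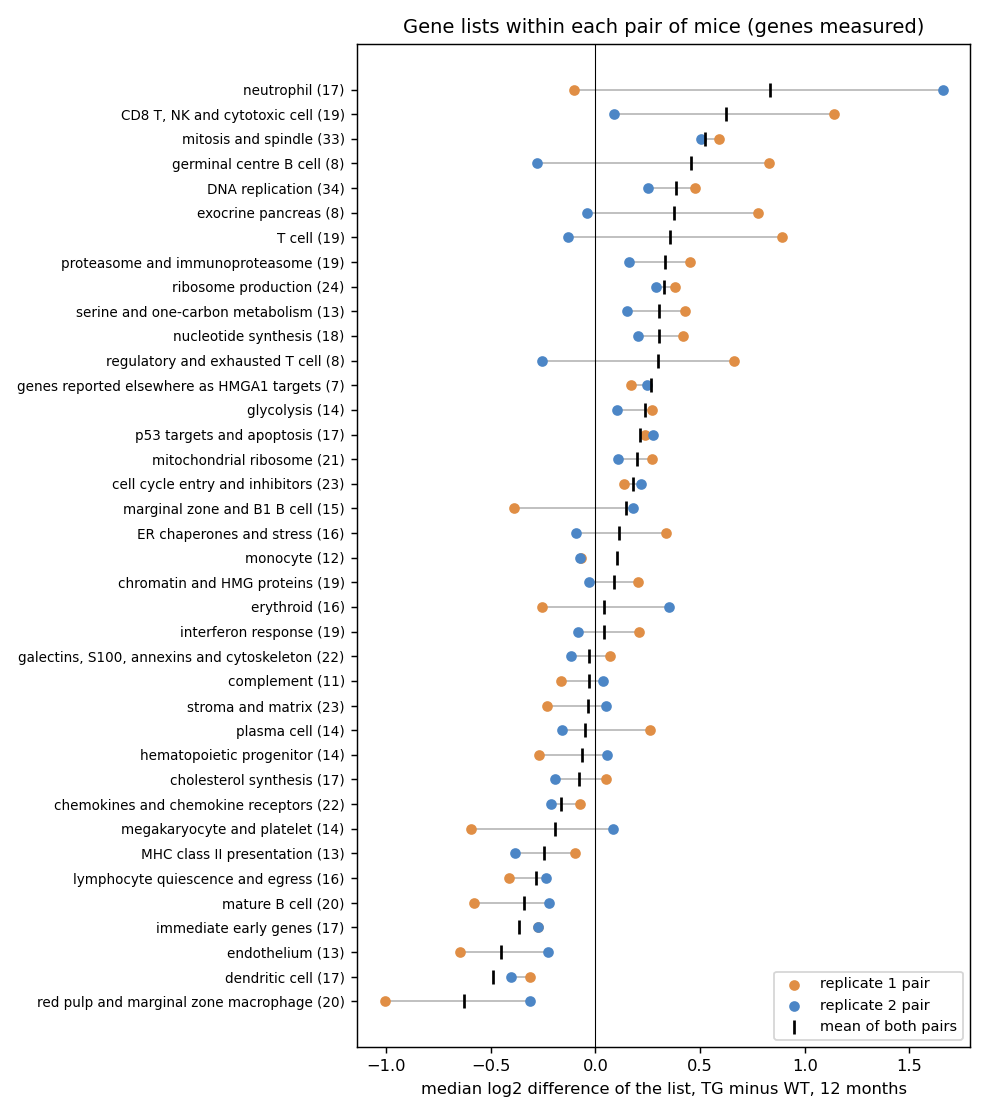
Median log2 difference of TG and WT at 12 months of each gene list with at least 5 measured genes, in the replicate 1 pair (orange), the replicate 2 pair (blue) and for the mean of both (black bar), with the number of genes measured. Mitosis (0.59 and 0.50) and ribosome production (0.38 and 0.29) have the pairs close together, whereas neutrophil genes (-0.10 and 1.66) and T cell genes (0.89 and -0.13) have them on either side of 0.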

How the data were processed

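Total RNA of 8 mice was hybridised to 1 array each. The deposited values are linear signal intensities that the authors made with GCOS 1.4 and MAS5, per the submitters' processing notes, with 1 scaling factor per array (trimmed mean 150.001). Of 45101 probe sets 34945 had 1 gene symbol. Values were taken as log2(signal + 16), and probe sets with a mean under the median of all were dropped, leaving 22519. The brightest probe set stood for a gene. No probe set with Hmga1 as its only symbol was listed, so the level of the transgene was not analysed here.

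limma 3.58.1 in R 4.3.3 (lmFit, eBayes with trend) was fitted to all 8 arrays with 4 group means and 4 residual degrees of freedom. Its estimates of known differences were checked on simulated arrays with independent noise, without the deviation that same-numbered mice share. P-values are 2-sided. Same-numbered mice deviated together (r = 0.464 to 0.654 across genes in the 6 pairs of groups), so results with the replicate number as a block are given where a call changes. The number's origin is not stated.

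Members and the 39 gene lists were chosen with earlier results of these data known. Genes are named by rule: in either direction the 15 with the largest smaller pair difference, those past an adjusted test, 6 per pair and direction for 1 pair only, opposite genes, the 3 largest of each list and 3 per direction by interaction, without clone names and receptor segments other than those past the adjusted test.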

Additional observations from a re-analysis of the deposited data

How the results depend on the processing

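For TG against WT at 12 months, 0 genes had an adjusted p under 0.05 without a block and 5 with the replicate block. Leaving out 1 array gave 0 to 7 without the block (7 without TG_12m replicate 2) and, in an alternative added after seeing the data, 0 to 731 with it (47 without TG_12m replicate 1, 731 without TG_12m replicate 2, 0 without either WT_12m mouse, 1 without either WT_2m mouse). In such fits the lone mouse of a group is assumed to vary like the other groups. Unadjusted counts of 865 became 2227 with the block, 533 with the 12-month arrays only and 502 to 1337 without 1 array (502 without WT_12m replicate 1, 544 without WT_12m replicate 2, 1337 without TG_12m replicate 2), or 1355 to 2813 with the block.

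At 2 months 44 became 292 without the filter, 22 with a filter at the 65th percentile, 189 with the block and 29 to 200 without 1 array (with the block 379 without TG_12m replicate 1, 374 without TG_12m replicate 2 and up to 468), and adjusted calls 0 to 2 (up to 5 with the block). For the interaction 213 became 488 without the filter, 911 with the block and 152 to 655 without 1 array (with the block 464 to 1842, among them 519 without WT_2m replicate 1), and adjusted calls up to 40 with the block (4 without WT_2m replicate 2, 40 without TG_12m replicate 2).

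The 18 higher, 22 lower and 3 opposite genes of both pairs became 8, 13 and 1 with the stricter filter, 39, 42 and 30 without a filter, and 6, 7 and 0 with a pseudocount of 64. With a pseudocount of 1 the lower became 41 and the opposite 9. At 1.5-fold there were 100, 179 and 62, and at 3-fold 3, 3 and 0. The cause of these shifts was not tested. Classes with an array left out were not run, since 1 pair remains. Of 38 list medians, 17 changed sign without 1 of the 12-month arrays and 21 did not. Among the latter were mitosis (0.38 to 0.66), macrophages (-0.97 to -0.34) and endothelium (-0.75 to -0.20), and others that moved further relative to their size, such as mature B cell (-0.75 to -0.023), MHC class II (-0.45 to -0.010), immediate early (-0.44 to -0.10), proteasome (0.16 to 0.46) and cell cycle entry genes (0.013 to 0.27). Chaperones ranged from -0.20 to 0.45. Genes named for a difference near 0 changed sign without 1 array: Kif4 ranged from -0.49 to 0.33 (0.072 and 0.28 with the block), Ms4a1 from -0.35 to 0.18 (0.056 and 0.0049) and Nr1h3 from -0.18 to 0.19 (-0.10 and -0.11).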
